A study of Mus musculus with 11 samples.

Results

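Neurons of the dorsolateral geniculate nucleus (dLG) were compared with neurons of the ventral posteromedial nucleus (VPM) across all genes. The samples were chosen by their labelled nucleus alone, and all 4 dLG and all 4 VPM libraries were used, 8 of the 11 libraries of the study. The other 3 libraries, from the ventral medial geniculate nucleus (MGv), entered the model only to help estimate the spread between libraries and were never a side of the comparison. All of them came from newborn mice (postnatal day 0) of the outbred strain ICR/CD-1 that carried Gbx2CreER-IRES-EGFP/+ and R26lsl-tdTomato/+. In these mice Gbx2 drives a Cre recombinase that works only after tamoxifen is given, and recombination turns on tdTomato, a red fluorescent protein, in young thalamic neurons. Sorted cells therefore had to have used Gbx2 when tamoxifen was given, and neurons that had not were missed. Each library held tissue of 4 pooled brains, so differences between animals cannot be read from it, and both groups shared genotype, strain and age, with no treatment separating them.

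The dLG receives input from the retina and projects to the visual cortex, whereas the VPM receives input from the whiskers and face and projects to the somatosensory cortex. Both are first-order relay nuclei of glutamatergic neurons. Around birth their axons have reached the cortex, and the neurons are sorting out their inputs and outputs with guidance receptors, adhesion molecules and transcription factors that differ between nuclei.

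Total counts ranged from 15.9 to 22.7 M in dLG (19.2 ± 2.87 M, SD, n = 4) and from 18.9 to 23.6 M in VPM (21.2 ± 1.97 M, SD, n = 4), so that 3 counts, taken as the smallest amount that could be shown, amounted to 0.129 to 0.186 counts-per-million (CPM). Principal component analysis of the 500 most variable genes placed the nuclei on opposite sides of the first component, which held 58.3% of the variance. On it the dLG libraries lay between -35.9 and -12.7 and the VPM libraries between 23.1 and 28.7. The second component, with 13.4% of the variance, set dLG 2 at -21.2 and VPM 3 at -22.6 apart from the other libraries. The same libraries had 3.05 and 4.09 CPM of the heat shock cognate gene Hspa8, against 159 to 581 CPM in the other 6, and VPM 3 had the largest mitochondrial share, 6.997%, against 2.88% to 4.97% elsewhere. An MGv library shared the low Hspa8. Counts on Y-linked genes were 1 or 2 in dLG 1, dLG 3 and VPM 1 and between 1370 and 2150 in the other 5 libraries.

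**Figure D1:**
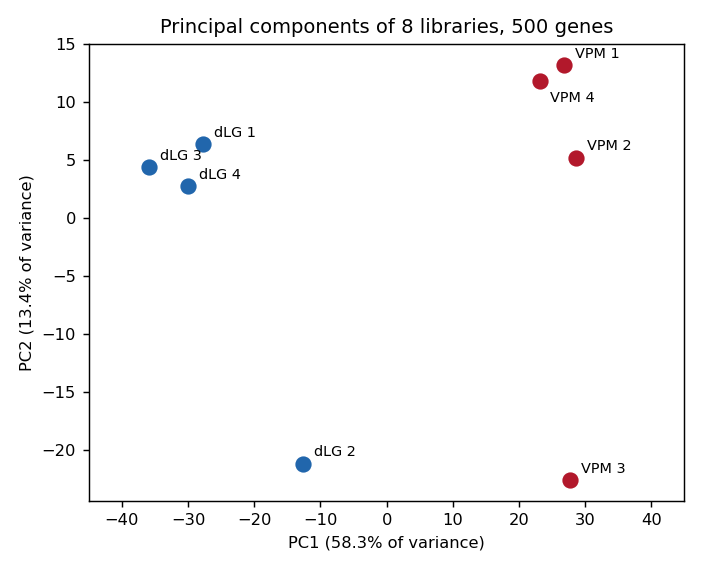
Scores of the 8 libraries on the first (x axis) and second (y axis) principal components of log2 CPM, with dLG in blue and VPM in red. The nuclei separate along the first component, where dLG 2 at -12.7 is the dLG library nearest to VPM, and dLG 2 and VPM 3 lie apart on the second.

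The cells sorted from both nuclei carried the defining genes of thalamic relay neurons. Slc17a6, the vesicular glutamate transporter of these cells, stood at 537 ± 39.9 CPM in dLG and 541 ± 99.1 CPM in VPM (n = 4 each, SD; adjusted p = 0.984). Tcf7l2, a transcription factor that marks the thalamus, stood at 469 ± 152 CPM in dLG and 531 ± 43.0 CPM in VPM (n = 4 each, SD; adjusted p = 0.650). Gbx2, the gene whose promoter drove the reporter, had 29.4, 51.6, 14.2 and 22.3 CPM in dLG 1 to 4 and 27.4, 45.7, 27.3 and 40.7 CPM in VPM 1 to 4. These ranges overlapped, and the log2 fold change of -0.26 ± 0.30 (SE) did not pass (adjusted p = 0.711). Outside dLG 2, VPM 3 and the MGv library with low Hspa8, Gbx2 was called higher in VPM (adjusted p = 0.0702). Of the exonic bases of Gbx2, 43.5% also belong to a gene on the opposite strand. Reads from the pair cannot be told apart where the counting did not use strand. Slc32a1, the vesicular transporter that defines inhibitory neurons, was at or under 3 counts in every library.

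Of 15907 genes tested, 1704 (10.7%) differed between dLG and VPM at an adjusted p under 0.1. Of these, 791 (4.97% of the genes tested) were higher in dLG and 913 (5.74%) were higher in VPM. Fold changes here are dLG over VPM on a log2 scale, with a standard error from the fit. Among the genes called, the median absolute log2 fold change was 1.07, and 922 differed by more than 2-fold. Differences of more than 4-fold numbered 141 in the direction of dLG and 220 in the direction of VPM, and differences of more than 16-fold numbered 21 and 42. The 4 libraries of one nucleus lay wholly above the 4 of the other for 2324 genes (14.6%), and 1474 of the genes called were among them. Since these were bulk samples, fewer cells that express a gene and less RNA per cell cannot be told apart. Leaving out dLG 2, VPM 3 and the MGv library with low Hspa8 raised the calls to 2618, of which 1201 were higher in dLG and 1417 in VPM, and 1555 of the 1704 were called again. With only the libraries that held Y-linked counts, of which 2 were dLG and 3 VPM, 383 genes were called, 364 of them among the 1704. This setting left out dLG 1, dLG 3 and VPM 1 and kept dLG 2, VPM 3 and the MGv library with low Hspa8. Y-linked content, fewer libraries and low Hspa8 therefore cannot be told apart in it, here or in the families below. Without VPM 1 or without VPM 2 alone, 1101 and 1093 genes were called, and without dLG 1 or without dLG 4, 511 and 504 were higher in dLG. Scaling by total counts in place of the trimmed mean of M values moved the median of all genes to 0.10 and turned the split to 1075 higher in dLG (61.1% of the calls, against 46.4%) and 685 higher in VPM.

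**Figure D2:**
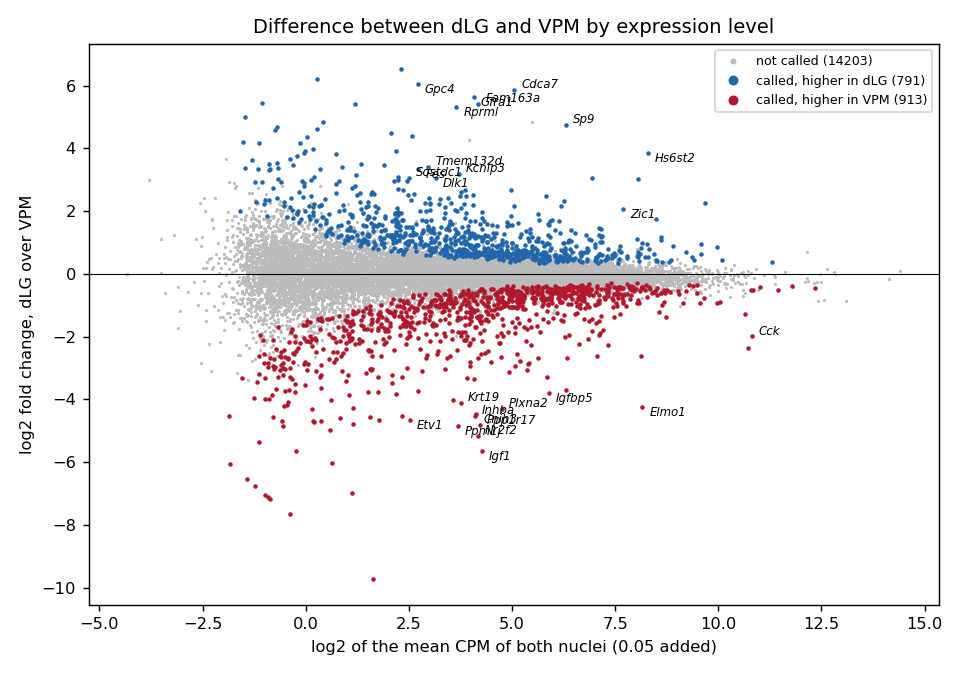
Log2 fold change of dLG over VPM (y axis) against the log2 mean CPM of both nuclei (x axis) for the 15907 genes tested, with the 791 genes called higher in dLG in blue, the 913 called higher in VPM in red and all others in grey. The 6 markers are named, with the 12 largest differences toward dLG and 11 of the 12 toward VPM among protein-coding genes of at least 10 CPM.

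The 3 genes that mark dLG neurons, Hs6st2, Sp9 and Zic1, and the 3 that mark VPM neurons, Cck, Inhba and Plxna2, separated the nuclei in every library. They had been picked with earlier results of these libraries known, so their direction is a description. Hs6st2 encodes an enzyme that adds sulfate to the 6-O position of heparan sulfate, Sp9 and Zic1 encode zinc finger transcription factors, Cck encodes the precursor of the neuropeptide cholecystokinin, Inhba encodes the subunit of activin A, and Plxna2 encodes a semaphorin receptor. The promoters of 4 of them, and that of Zic4, which overlaps Zic1 on the opposite strand, are shown as examples from both sides of the contrast. The RefSeq start used for Zic4 lies inside the gene as GENCODE M21 places it, not at its 5′ end. The same holds for Plxna2 (RefSeq start 194619829, gene from 194618218). It also holds for Hs6st2 on the minus strand (RefSeq start 51681602, gene from 51681856). Sequences run 5′ to 3′ on the strand of the gene, from 250 bases before to 50 bases after the RefSeq start (build GRCm38.p6), and capitals mark the GC box that Sp family factors can bind, searched as GGGCGG on both strands (CCGCCC on the printed one).
Hs6st2 (chrX:51681553-51681852, minus strand): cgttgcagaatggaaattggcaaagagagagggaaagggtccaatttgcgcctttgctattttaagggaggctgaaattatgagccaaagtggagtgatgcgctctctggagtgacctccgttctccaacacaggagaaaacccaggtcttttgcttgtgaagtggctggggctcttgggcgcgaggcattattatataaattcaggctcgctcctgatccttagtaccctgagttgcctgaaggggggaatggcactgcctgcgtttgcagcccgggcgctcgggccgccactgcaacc
Zic1 (chr9:91365719-91366018, minus strand): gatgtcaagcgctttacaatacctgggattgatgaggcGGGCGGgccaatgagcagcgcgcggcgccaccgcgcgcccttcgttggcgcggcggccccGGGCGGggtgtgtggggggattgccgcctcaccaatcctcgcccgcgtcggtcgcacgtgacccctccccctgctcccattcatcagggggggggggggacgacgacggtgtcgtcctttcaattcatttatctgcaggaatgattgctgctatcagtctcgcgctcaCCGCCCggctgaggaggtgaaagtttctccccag
Zic4 (chr9:91368722-91369021, plus strand): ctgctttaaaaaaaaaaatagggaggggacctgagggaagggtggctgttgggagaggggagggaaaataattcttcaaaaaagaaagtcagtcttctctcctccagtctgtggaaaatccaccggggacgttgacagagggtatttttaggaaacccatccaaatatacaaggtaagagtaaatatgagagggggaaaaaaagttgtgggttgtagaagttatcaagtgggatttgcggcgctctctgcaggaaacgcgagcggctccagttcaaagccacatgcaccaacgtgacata
Inhba (chr13:16011601-16011900, plus strand): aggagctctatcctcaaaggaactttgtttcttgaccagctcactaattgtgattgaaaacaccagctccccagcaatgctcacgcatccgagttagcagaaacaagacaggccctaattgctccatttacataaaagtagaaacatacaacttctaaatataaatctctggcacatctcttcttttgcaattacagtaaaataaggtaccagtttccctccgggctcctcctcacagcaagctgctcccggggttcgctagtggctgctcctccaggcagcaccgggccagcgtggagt
Plxna2 (chr1:194619579-194619878, plus strand): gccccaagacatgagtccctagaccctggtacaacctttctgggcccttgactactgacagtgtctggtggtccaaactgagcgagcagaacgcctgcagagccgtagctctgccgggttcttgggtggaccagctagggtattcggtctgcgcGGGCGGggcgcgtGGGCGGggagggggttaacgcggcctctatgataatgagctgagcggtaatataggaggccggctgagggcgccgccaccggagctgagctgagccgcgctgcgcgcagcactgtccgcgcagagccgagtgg

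The promoter of Zic1 held 3 such boxes and that of Plxna2 held 2, while those of Hs6st2, Zic4 and Inhba held 0 in these 300 bases. Of the markers whose promoters are not printed, Sp9 had 1 box and Cck 0. A box was found in 63.6% of the 11277 promoters matched by symbol to genes tested, in 60.9% of the 622 matched to genes higher in dLG and in 65.4% of the 682 matched to genes higher in VPM. A match of letters is not a binding site, and no test was made of these shares.

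Hs6st2 had 614, 473, 647 and 617 CPM in dLG 1 to 4 and 47.4, 38.1, 37.3 and 40.7 CPM in VPM 1 to 4. No VPM library came near the lowest dLG library, dLG 2, and the log2 fold change was 3.85 ± 0.15 (SE), or 14.4-fold (adjusted p = 9.11e-09). For its relatives no difference was called, with Hs6st1 at 45.6 ± 5.34 CPM in dLG and 43.7 ± 4.77 CPM in VPM (n = 4 each, SD; adjusted p = 0.885). Hs6st3 had 3.77 ± 1.51 and 3.503 ± 1.16 CPM (SD, n = 4 each; adjusted p = 0.919). Sp9 had 81.9, 116, 117 and 293 CPM in dLG and 4.08, 3.25, 3.78 and 11.3 CPM in VPM, a log2 fold change of 4.76 ± 0.50 (SE; adjusted p = 5.26e-05). The libraries numbered 4 were the highest in each nucleus, yet the groups stayed far apart. Zic1 had 308, 369, 305 and 351 CPM in dLG and 75.8, 68.2, 90.1 and 82.8 CPM in VPM, 4.20-fold higher in dLG with little spread in either nucleus (log2 fold change 2.07 ± 0.14, SE; adjusted p = 9.22e-07).

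Cck had 1333, 290.1, 619.5 and 631 CPM in dLG and 3415, 2687, 3086 and 2266 CPM in VPM. It was thus expressed in both nuclei, with the lowest VPM library above the highest dLG library, and was 3.99-fold higher in VPM (log2 fold change -1.995 ± 0.34, SE; adjusted p = 0.00229). Inhba had 2.68, 0.258, 1.42 and 1.43 CPM in dLG and 52.1, 37.2, 17.3 and 23.7 CPM in VPM. Only in dLG 2 did it lie close to the smallest amount that could be shown, yet every dLG library was far below every VPM library, and the log2 fold change was -4.53 ± 0.61 (SE; adjusted p = 0.000399). Plxna2 had 1.71, 6.10, 1.63 and 0.811 CPM in dLG and 71.3, 57.3, 31.4 and 45.5 CPM in VPM (log2 fold change -4.30 ± 0.51, SE; adjusted p = 0.000147). For Plxna2 the highest dLG value was that of dLG 2, and for Inhba and Plxna2 the lowest VPM value was that of VPM 3, the libraries that stood apart on the second component.

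**Figure D3:**
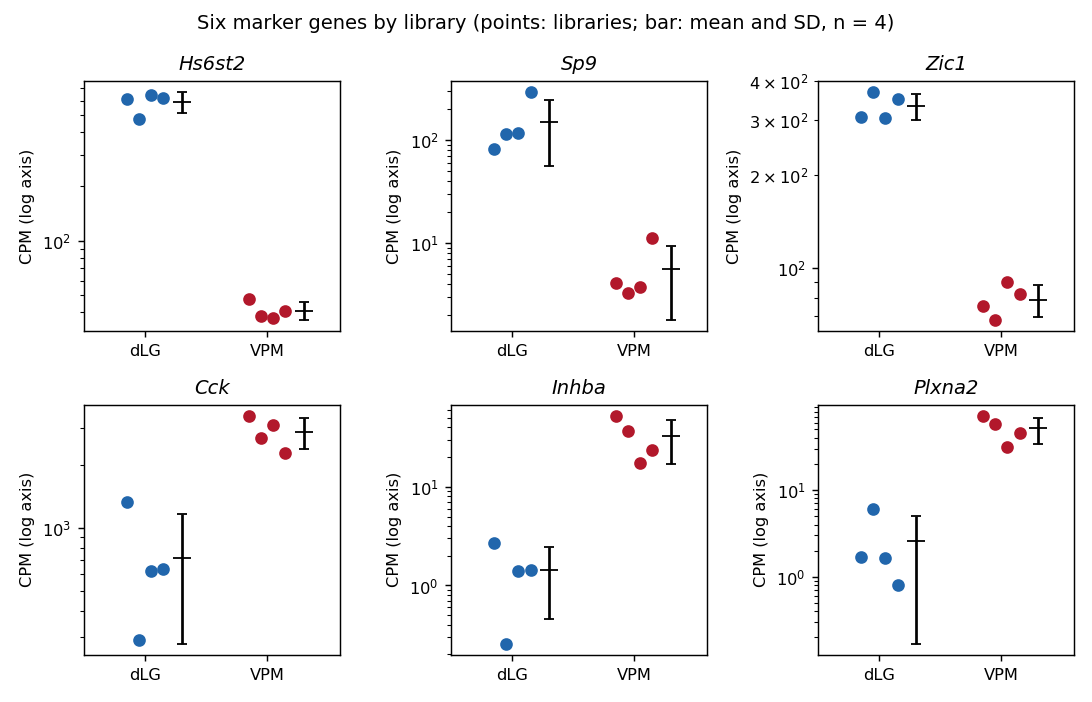
CPM of the 6 marker genes on log axes, with each library a point (dLG blue, VPM red) and the black bar the mean and SD of 4 libraries. In each panel the lowest library of the higher nucleus lies above the highest library of the other, with Hs6st2 at 473 CPM or more in dLG and at 47.4 CPM or less in VPM.

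The 12 protein-coding genes with the largest differences toward dLG, among those of at least 10 CPM there whose libraries did not overlap, had log2 fold changes from 3.05 to 6.07. Several lie at the cell surface or are secreted. Gpc4, a glypican that carries heparan sulfate chains, had 14.7, 6.70, 13.6 and 16.2 CPM in dLG and 0.185, 0.0866, 0.186 and 0.285 CPM in VPM (log2 fold change 6.07 ± 0.45, SE; adjusted p = 2.73e-06). Gfra1, the receptor subunit that binds GDNF, had 27.8, 23.97, 39.8 and 39.7 CPM in dLG and 0.603, 0.866, 0.620 and 0.523 CPM in VPM (log2 fold change 5.63 ± 0.26, SE; adjusted p = 3.87e-08). In VPM, Gpc4 lay at about the limit of 3 counts and Gfra1 was low but above it, while all dLG libraries held both clearly. Dlk1, a membrane protein of the Notch ligand family, and Sostdc1, a secreted antagonist of BMP and Wnt signals, were 8.35-fold and 8.26-fold higher in dLG (adjusted p = 7.04e-05 and 0.000723). Cdca7, a chromatin-associated protein known from dividing cells, had 71.4, 48.2, 58.0 and 83.2 CPM in dLG and 1.02, 0.606, 1.92 and 0.999 CPM in VPM. Of 8 cycling cell genes tested, edgeR called 0 (0 at an unadjusted p under 0.05, 0 by DESeq2 and 2 toward VPM by limma-voom), and their summed level was 39.8 to 47.7 CPM in dLG and 53.3 to 56.7 CPM in VPM. Fam163a, Rprml and Tmem132d (log2 fold changes 5.43 ± 0.32, 5.31 ± 0.34 and 3.41 ± 0.37, SE), the tyrosine kinase gene Fes (3.35 ± 0.45) and Kcnip3 (3.18 ± 0.21), which encodes a calcium sensor of A-type potassium channels, completed the set with Sp9 and Hs6st2.

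Toward VPM the 12 largest differences had log2 fold changes from -5.64 to -3.80. Igf1, insulin-like growth factor 1, had 1.10, 0.559, 1.09 and 0.334 CPM in dLG and 64.2, 46.4, 13.9 and 26.3 CPM in VPM (log2 fold change -5.64 ± 0.79, SE; adjusted p = 0.000541), and Igfbp5, which encodes a binding protein of it, was 13.9-fold higher in VPM (adjusted p = 5.86e-06). Nr2f2, the nuclear receptor COUP-TFII, had 0.426, 1.85, 0.218 and 1.24 CPM in dLG and 38.5, 42.2, 21.6 and 37.8 CPM in VPM (log2 fold change -5.17 ± 0.47, SE; adjusted p = 1.72e-05). The lowest VPM value of both Igf1 and Nr2f2 was that of VPM 3. The genes of this set were chosen with no overlap between the nuclei, so that separation is part of the choice and not a further result. Elmo1, which takes part in activation of the small GTPase Rac, had 24.7, 47.1, 23.3 and 18.5 CPM in dLG and 663, 647, 373 and 491 CPM in VPM, 19.1-fold higher in VPM. Etv1, an ETS transcription factor, was higher there by a log2 fold change of -4.66 ± 0.50 (SE), and Cnih3, an auxiliary subunit of AMPA receptors, by -4.48 ± 0.44. The phosphatase gene Ppm1j and the phosphatase inhibitor gene Ppp1r17 were higher in VPM by -4.85 ± 0.47 and -4.83 ± 0.34. Krt19, a keratin, had a log2 fold change of -4.10 ± 0.47 (SE). Of 8 microglia genes tested, edgeR called 0 (1 toward VPM at an unadjusted p under 0.05, 0 by DESeq2 and 4 toward VPM by limma-voom). They summed to 55.4 to 68.3 CPM in dLG and 55.1 to 72.6 CPM in VPM.

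**Figure D4:**
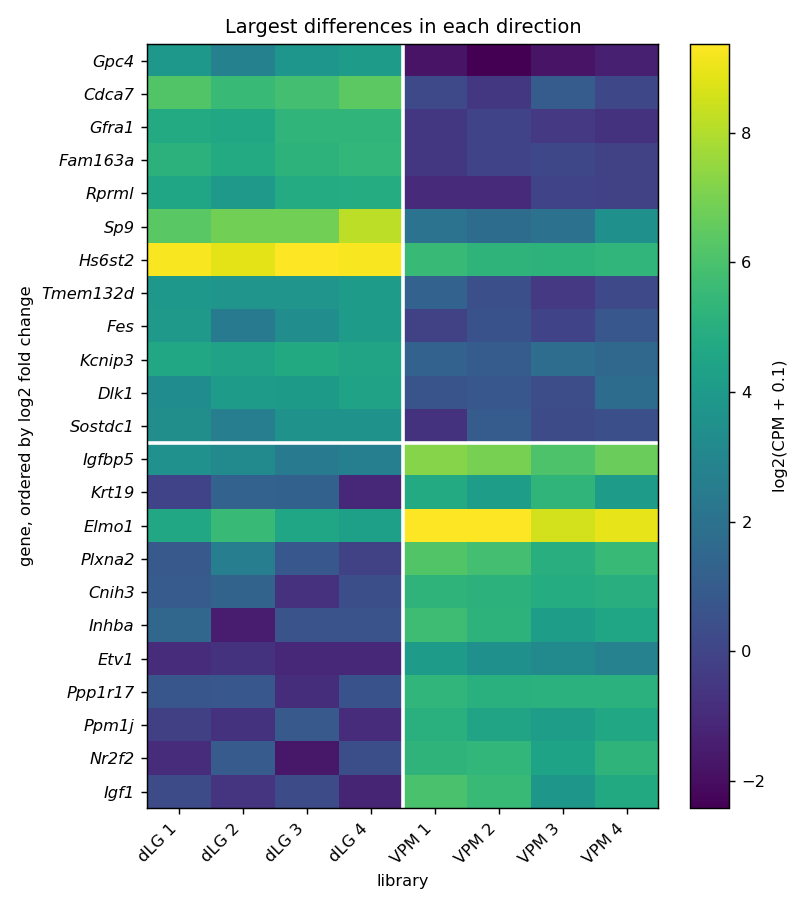
Heat map of log2(CPM + 0.1) for the 12 genes with the largest differences toward dLG and 11 of the 12 toward VPM (rows, ordered by log2 fold change) in the 8 libraries (columns). The upper 12 rows are brighter in the 4 dLG columns and the lower 11 in the 4 VPM columns, and Hs6st2 and Elmo1 reach the highest values.

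The families below were lists of genes chosen by function, with results of these libraries known. A family's share of genes called is therefore described against the 10.7% of all genes, with no test of the list.

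Transcription factors that specify or mark thalamic relay neurons were called in 11 of 16 cases, 3 higher in dLG and 8 higher in VPM, and the median log2 fold change of the 16 was -0.37, against 0.00 for all genes. Lhx9, a LIM homeobox factor of the thalamus, was present in both nuclei, with 475, 532, 626 and 534 CPM in dLG and 221, 270.1, 209 and 251 CPM in VPM (log2 fold change 1.19 ± 0.13, SE; adjusted p = 5.52e-05). Rora was 1.81-fold higher in dLG and its paralogue Rorb 6.47-fold higher in VPM (adjusted p = 0.00931 and 5.26e-05). Rorb had 20.7, 30.5, 17.7 and 17.6 CPM in dLG and 176, 194, 75.0 and 115 CPM in VPM. The nuclear receptors of the ROR family thus differed in opposite directions, and both groups were separate for Rorb, although VPM 3 had less than the other VPM libraries. Nr2f1, the paralogue of Nr2f2, was high in both nuclei, with 222, 226, 192 and 226 CPM in dLG and 268, 273, 367 and 298 CPM in VPM (log2 fold change -0.48 ± 0.12, SE; adjusted p = 0.0310). Foxp2 had 242, 372, 223 and 235 CPM in dLG and 418, 457, 362 and 393 CPM in VPM, so that dLG 2 overlapped VPM 3 (log2 fold change -0.61 ± 0.16, SE; adjusted p = 0.0324). Its call was lost without dLG 4 or without VPM 2 (adjusted p = 0.101 and 0.106). Outside dLG 2, VPM 3 and the MGv library with low Hspa8, 3 of the 16 were higher in dLG and 10 in VPM, and without dLG 4 or without VPM 2 alone 5 were higher in VPM.

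Zinc finger, homeobox and bHLH factors that pattern the nervous system leaned to dLG, with 12 higher in dLG and 4 higher in VPM of 34 tested and a median of 0.46. Without dLG 4 or without VPM 1 the calls were 7 and 3. Zic4 had 440, 462, 461 and 537 CPM in dLG and 38.3, 39.3, 84.9 and 71.1 CPM in VPM (log2 fold change 3.03 ± 0.32, SE; adjusted p = 5.26e-05). Zic1 and Zic4 lie on opposite strands of chromosome 9, and their RefSeq starts are 3204 bases apart. In GENCODE M21, used for the counts' symbols, the genes overlap (91358058 to 91365810 and 91362413 to 91389348). There 1.05% of the exonic bases of Zic1 overlap those of Zic4, where reads cannot be told apart if the counting did not use strand. Neurog2, a proneural bHLH factor, had 4.20, 9.24, 5.88 and 12.6 CPM in dLG and 0.417, 0.476, 0.124 and 0.333 CPM in VPM (log2 fold change 4.50 ± 0.59, SE; adjusted p = 0.000292). Pou2f2 was higher in dLG by 1.23 ± 0.18 (SE) and Id2, an inhibitor of bHLH factors, by 1.08 ± 0.22. In the other direction, Hes1, a repressor downstream of Notch, had 47.6, 47.7, 44.5 and 90.7 CPM in dLG and 208, 223, 213 and 239 CPM in VPM, and Mycn was 1.76-fold higher in VPM (adjusted p = 0.00155 and 0.00403). The 4 VPM libraries were alike for Hes1, whereas dLG 4 stood above the other dLG libraries.

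Among genes that make or carry heparan sulfate, 13 of 28 were called, 6 higher in dLG and 7 higher in VPM, with a median of 0.20. The dLG side held the sulfotransferases Hs6st2, Ndst3 and Hs3st1 and the glypicans Gpc4, Gpc3 and Gpc5. Ndst3 had 19.7, 18.3, 21.5 and 21.4 CPM in dLG and 5.56, 5.80, 2.295 and 6.28 CPM in VPM (log2 fold change 2.01 ± 0.26, SE; adjusted p = 0.000279), and Hs3st1 was higher by 1.10 ± 0.17 (SE; adjusted p = 0.00104). Hs6st2, Gpc4 and Gpc3 lie one after another on the X chromosome (GRCm38 51387212 to 51681856, 52053021 to 52165252 and 52272426 to 52613950). Gpc3 was low, with 3.78, 1.98, 4.09 and 3.05 CPM in dLG and 0.510, 1.43, 1.24 and 0.238 CPM in VPM. On the VPM side were the sulfotransferases Hs3st5 and Hs3st2, the sulfatase Sulf1, the core proteins Sdc1 and Gpc1, and the enzymes Glce and Extl2. Sdc1 had 5.78, 4.25, 7.52 and 5.01 CPM in dLG and 27.7, 29.1, 15.6 and 23.8 CPM in VPM (log2 fold change -2.09 ± 0.28, SE; adjusted p = 0.000353), and Hs3st5 was 2.81-fold higher in VPM (adjusted p = 0.000147). The calls of 3 members depended on single libraries. Extl2 lost its call without dLG 2, dLG 4, VPM 1 or VPM 2 (adjusted p = 0.128 to 0.206), Gpc3 without dLG 1, dLG 3, dLG 4, VPM 1 or VPM 4 (0.126 to 0.183), and Gpc5 when any one library except dLG 3 or VPM 3 was left out (0.169 to 0.234). With only the libraries that held Y-linked counts, 4 members were called higher in dLG and 2 in VPM.

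Guidance receptors and their ligands direct growing axons. Of 13 EphA receptors and ephrin-As tested, 2 were higher in dLG and 1 in VPM, and of 7 EphB receptors and ephrin-Bs, 2 were higher in dLG and 0 in VPM (0 also by DESeq2 and at an unadjusted p under 0.05, 1 by limma-voom). Efna2 and Epha3 were higher in dLG by 0.77 ± 0.16 and 0.53 ± 0.13 (SE), and Epha7, whose libraries overlapped, was higher in VPM by -0.47 ± 0.15 (adjusted p = 0.0760). It was no longer called when any one library except dLG 1 or VPM 3 was left out (adjusted p = 0.115 to 0.205). Outside dLG 2, VPM 3 and the MGv library with low Hspa8 its adjusted p was 0.0419. With only the libraries that held Y-linked counts, edgeR called 0 EphA and ephrin-A genes, and 2 toward dLG and 1 toward VPM had an unadjusted p under 0.05. Efna5, a ligand that guides thalamic axons, stood at 41.6 ± 2.41 CPM in dLG and 31.6 ± 7.29 CPM in VPM (n = 4 each, SD; adjusted p = 0.197). The ephrin-B genes Efnb3 and Efnb2 were 1.47-fold and 2.61-fold higher in dLG (adjusted p = 0.0161 and 0.0457). Without dLG 3 the call of Efnb2 was lost (adjusted p = 0.142). In the Slit, Robo, netrin and draxin group, 1 of 17 was higher in dLG and 2 in VPM, and the netrin receptors were on both sides. The VPM count was 1 when any one library except dLG 2 or VPM 3 was left out, and the dLG count was 2 without dLG 3 or without VPM 3. Unc5c had 44.4, 35.2, 33.1 and 45.8 CPM in dLG and 21.5, 14.8, 11.7 and 17.9 CPM in VPM, whereas Unc5b was at 0 to 0.426 CPM in dLG and at 1.34 to 2.17 CPM in VPM. Unc5a overlapped between the nuclei (log2 fold change -0.97 ± 0.30, SE; adjusted p = 0.0675) and lost its call when any one library except dLG 2 or VPM 3 was left out (adjusted p = 0.119 to 0.178). Outside dLG 2, VPM 3 and the MGv library with low Hspa8 its adjusted p was 0.00862. Robo1 and Robo2, the Slit receptors, gave adjusted p = 0.114 and 0.763.

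Semaphorins, plexins and neuropilins had 2 of 29 higher in dLG and 3 in VPM, or 3 and 5 without VPM 3. Nrp1, the receptor for class 3 semaphorins, had 17.6, 28.8, 12.04 and 14.2 CPM in dLG and 2.23, 1.86, 8.50 and 1.14 CPM in VPM (log2 fold change 2.43 ± 0.52, SE; adjusted p = 0.0110). The groups were separate, although VPM 3 came within reach of the lowest dLG library. Plxna2 was the largest difference on the VPM side, and Sema3c was low, with 0 to 0.430 CPM in dLG and 0.558 to 3.94 CPM in VPM. Sema5b was 4.44-fold higher in dLG and Plxna4 higher in VPM by -1.06 ± 0.27 (SE; adjusted p = 0.00771 and 0.0296). Cadherins and non-clustered protocadherins were called in 11 of 25 cases, with 2 higher in dLG, 9 higher in VPM and a median of -0.34. Cdh10 had 64.9, 63.4, 56.4 and 64.9 CPM in dLG and 27.9, 26.4, 27.3 and 28.9 CPM in VPM, while Cdh13 had 35.3, 32.7, 27.8 and 29.1 CPM in dLG and 173, 151, 72.9 and 106 CPM in VPM. These adhesion molecules separated the nuclei in opposite directions by log2 fold changes of 1.18 ± 0.16 and -2.01 ± 0.29 (SE; adjusted p = 0.000387 and 0.000704). Pcdh17 was low in dLG 1, 3 and 4, with 2.37 to 4.03 CPM, but reached 35.9 CPM in dLG 2, against 123 to 180.3 CPM in VPM (log2 fold change -3.71 ± 0.71, SE; adjusted p = 0.00519).

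**Figure D5:**
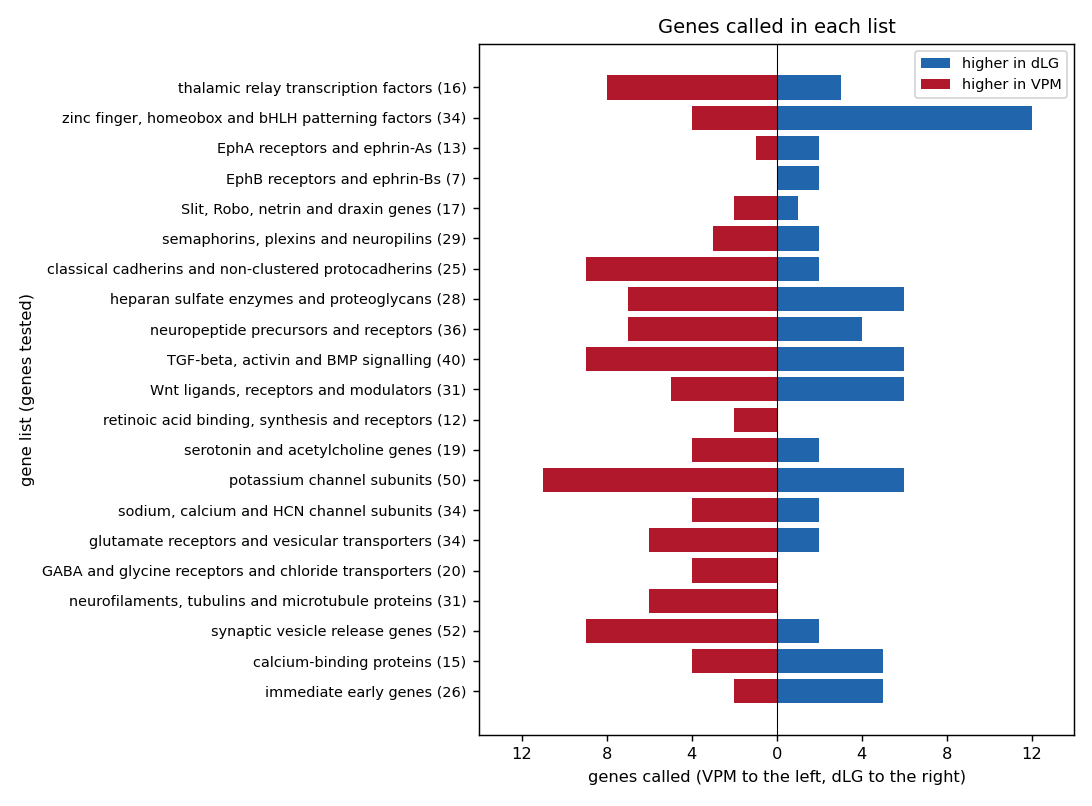
Number of genes called in each of 21 gene families, higher in dLG to the right (blue) and higher in VPM to the left (red), with the number tested in brackets. Patterning factors lean to dLG (12 against 4), and cadherins (9 against 2) and synaptic vesicle release genes (9 against 2) lean to VPM.

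Secreted signals and their modulators were called on both sides. In the TGF-beta, activin and BMP family 6 of 40 were higher in dLG and 9 in VPM, with a median of 0.18. Without VPM 1 alone the VPM count fell to 5. The VPM side held both activin subunits and the activin antagonist Fst. Inhbb had 0, 0, 0.163 and 0 CPM in dLG and 3.52, 3.51, 2.54 and 2.24 CPM in VPM, which was 3 counts over the 4 dLG libraries against 245 over the 4 VPM libraries, a ratio of 78.9 (exact 95% interval 26.7 to 385, counting error only). Fst had 0.852, 0, 0.436 and 1.29 CPM in dLG and 7.83, 7.66, 2.67 and 3.00 CPM in VPM (log2 fold change -3.04 ± 0.77, SE; adjusted p = 0.0277). The BMP antagonist Nog was higher in VPM by -1.69 ± 0.48 (SE; adjusted p = 0.0497), whereas the ligand gene Bmp7 and Fstl4 were 3.29-fold and 4.25-fold higher in dLG (adjusted p = 0.00909 and 0.00391). Nog lost its call without dLG 1, dLG 3 or VPM 4 (adjusted p = 0.109 to 0.130). Wnt genes were called in 11 of 31 cases, 6 higher in dLG and 5 in VPM. The dLG count was 3 without dLG 1 or without VPM 2, and the VPM count was 3 without dLG 1, dLG 3, VPM 1, VPM 2 or VPM 4. The Wnt antagonist Wif1 had 23.2, 13.3, 25.7 and 38.7 CPM in dLG and 3.43, 6.92, 2.98 and 4.47 CPM in VPM (log2 fold change 2.49 ± 0.33, SE; adjusted p = 0.000346), and Nkd1, an intracellular inhibitor, was higher in dLG by 1.03 ± 0.16 (SE). The receptor gene Fzd10 and the ligand gene Wnt9a were 3.24-fold and 2.60-fold higher in VPM. Of 12 retinoic acid genes, 0 were higher in dLG (0 also by DESeq2 and at an unadjusted p under 0.05, 1 by limma-voom) and 2 in VPM. These were Cyp26a1, which breaks down retinoic acid, with 0.365 to 0.945 CPM in dLG and 2.48 to 8.395 CPM in VPM, and Crabp1, a binding protein, which was 2.91-fold higher in VPM. Crabp2, its paralogue, had 4.87, 103, 7.68 and 7.397 CPM in dLG and 113, 170, 49.3 and 160 CPM in VPM and did not pass (adjusted p = 0.161). The overlap came from dLG 2 and VPM 3. Outside these and the MGv library with low Hspa8, 1 of 13 retinoic acid genes was higher in dLG and 4 in VPM, and without dLG 2 alone the counts were 0 by edgeR and 4, without VPM 3 alone 1 and 2.

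Neuropeptide precursors and receptors were called in 11 of 36 cases, 4 higher in dLG and 7 in VPM. The dLG count was 1 without dLG 1 and 2 without dLG 4 or without VPM 2, and the VPM count was 12 without dLG 2. Beside Cck, Scg2, a granin of dense-core vesicles, had 1040.0, 1162, 691 and 828 CPM in dLG and 2734, 2339, 1741 and 2295 CPM in VPM (log2 fold change -1.29 ± 0.18, SE; adjusted p = 0.000409). Tac1, the precursor of substance P, had 8.46, 7.13, 5.61 and 6.40 CPM in dLG and 1.34, 2.94, 3.16 and 1.71 CPM in VPM, so the groups were separate in the opposite direction (log2 fold change 1.59 ± 0.31, SE; adjusted p = 0.00650). Npy5r, a neuropeptide Y receptor, was 2.80-fold higher in dLG (adjusted p = 0.0433), a call lost without dLG 1 (adjusted p = 0.123) and at the threshold without VPM 2. Thalamic neurons of the sensory nuclei take up serotonin for a short time after birth, and the genes for this differed. Slc6a4, the serotonin transporter at the cell membrane, had 86.3, 41.1, 40.4 and 53.2 CPM in dLG and 369, 306, 130 and 266 CPM in VPM (log2 fold change -2.28 ± 0.33, SE; adjusted p = 0.000705). Maoa, which degrades serotonin, had 6.58, 11.3, 4.69 and 6.44 CPM in dLG and 55.6, 50.7, 39.1 and 38.7 CPM in VPM. Slc18a2, the vesicular monoamine transporter, went the other way, with 760.4, 286, 729 and 719 CPM in dLG and 370.3, 368, 206 and 389 CPM in VPM. For it dLG 2 lay within the VPM range, and the log2 fold change of 0.90 ± 0.29 (SE) passed narrowly (adjusted p = 0.0755) and failed when any one library except dLG 2 or VPM 4 was left out (adjusted p = 0.123 to 0.203). Outside dLG 2, VPM 3 and the MGv library with low Hspa8, Slc18a2 passed with an adjusted p of 0.00322. Over the whole serotonin and acetylcholine list, 2 of 19 were higher in dLG, the other being the muscarinic receptor gene Chrm3 (3.80-fold), and 4 in VPM. The dLG count was 1 when any one library except dLG 2 or VPM 4 was left out.

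Genes of electrical and synaptic function came next. Potassium channel subunits had 6 of 50 higher in dLG and 11 in VPM, or 5 and 2 with only the libraries that held Y-linked counts. Without single libraries the VPM count was 4 (VPM 1 or VPM 2), 6 (dLG 1, dLG 3 or VPM 4) or 7 (dLG 4), while the dLG count was 6 in each of these. Kcnip1, which like Kcnip3 encodes a partner of A-type channels, had 101, 64.2, 101 and 117 CPM in dLG and 13.95, 13.1, 31.6 and 10.5 CPM in VPM (log2 fold change 2.48 ± 0.37, SE; adjusted p = 0.000997). Kcnab1, an auxiliary subunit, and Kcna4, a pore subunit, were 4.83-fold and 2.12-fold higher in VPM (adjusted p = 5.26e-05 and 0.00150). Sodium, calcium and HCN channel subunits had 2 of 34 higher in dLG and 4 in VPM, with Cacna2d3 at 20.1, 23.7, 12.9 and 17.5 CPM in dLG and 76.2, 67.1, 38.8 and 70.2 CPM in VPM. The dLG count was 1 without dLG 3, dLG 4 or VPM 2, and the VPM count was 8 without VPM 3. Cacng5 was 2.34-fold higher in VPM and Cacng2, the AMPA receptor partner stargazin, 1.52-fold higher in dLG. Cacna1e passed narrowly toward dLG with overlapping libraries (0.70 ± 0.23, SE; adjusted p = 0.0947) and failed when any one library except dLG 2 or VPM 1 was left out (adjusted p = 0.133 to 0.240). Outside dLG 2, VPM 3 and the MGv library with low Hspa8 its adjusted p was 0.0145. Cacna1g, the T-type channel gene of relay neurons, stood at 35.2 ± 4.32 CPM in dLG and 40.8 ± 12.6 CPM in VPM (n = 4 each, SD; adjusted p = 0.643).

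Of 34 glutamate receptor and vesicular transporter genes, 2 were higher in dLG and 6 in VPM. Gria1, an AMPA receptor subunit, had 103, 68.7, 107 and 101 CPM in dLG and 40.0, 39.9, 30.2 and 35.2 CPM in VPM, and Grm8, a presynaptic metabotropic receptor, was 2.94-fold higher in dLG (adjusted p = 0.00424 and 5.26e-05). The scaffold gene Homer2 was 2.91-fold higher in VPM. The groups of each of these 3 genes, named for a small adjusted p, were separate. Over the whole list 11 of 34 did not overlap, against 14.6% of all genes tested. GABA and glycine receptor genes had 0 of 20 higher in dLG, with 0 also by DESeq2, by limma-voom and at an unadjusted p under 0.05, and 4 in VPM, among them Glrb (1.63-fold; adjusted p = 0.0125). The VPM count was 2 without dLG 3, VPM 1 or VPM 2. The chloride exporter gene Slc12a5 stood at 128 ± 10.6 CPM in dLG and 118 ± 28.2 CPM in VPM (n = 4 each, SD; adjusted p = 0.759). Neurofilament, tubulin and microtubule genes had 0 of 31 higher in dLG by the same 4 counts and 6 in VPM. The VPM count was 1 without VPM 2, where Tuba8 alone was called, 2 without dLG 4 and 3 without VPM 1. Tuba8 and Tubb4a were 3.26-fold and 1.42-fold higher there, the former with 16.3% of its exonic bases on a gene of the opposite strand. Among synaptic vesicle release genes 2 of 52 were higher in dLG and 9 in VPM, with a median of -0.17. Cbln1, a secreted synapse organizer, had 3.29, 3.09, 1.91 and 2.67 CPM in dLG and 29.4, 29.0, 33.1 and 17.7 CPM in VPM, and Syt9 was 2.72-fold higher in VPM. Rims2, a protein of the active zone, was 1.61-fold and Syt10 3.18-fold higher in dLG (adjusted p = 0.00403 and 0.0316). Vesicle release genes numbered 4 and 10 without dLG 2, 1 and 6 without VPM 1 and 2 and 15 without VPM 3. Syt10 lost its call without VPM 1 and Tubb4a without VPM 2 (adjusted p = 0.105 each). Snap25, which belongs to the vesicle fusion machinery, differed by -0.62 ± 0.13 (SE; adjusted p = 0.0107). Outside dLG 2, VPM 3 and the MGv library with low Hspa8 the counts grew to 3 higher in dLG and 18 in VPM for vesicle release, to 0 and 9 for GABA and glycine receptors and to 5 and 10 for sodium, calcium and HCN channels.

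Calcium-binding proteins were called in 9 of 15 cases, 5 higher in dLG and 4 in VPM, or 3 and 4 without dLG 4. Calb2, calretinin, had 208, 257, 135 and 158 CPM in dLG and 80.0, 104, 99.6 and 91.7 CPM in VPM, and Ncald was 1.45-fold higher in dLG (adjusted p = 0.00315 and 0.0189). Vsnl1, visinin-like 1, had 45.4, 48.5, 28.4 and 28.2 CPM in dLG and 275, 246, 171 and 225 CPM in VPM, and S100a10 was 3.46-fold higher in VPM (adjusted p = 7.73e-06 and 0.000600). The groups did not overlap for any of these 4 genes, which were named for the smallest adjusted p in each direction. Over the whole list 8 of 15 did not overlap, against 14.6% of all genes tested. Immediate early genes, which respond to activity and also to tissue dissociation, had 5 of 26 higher in dLG and 2 in VPM, with a median of 0.56. Fos had 178, 296, 166 and 200 CPM in dLG and 100.2, 70.5, 75.1 and 65.3 CPM in VPM, and Fosb had 7.43, 20.6, 8.77 and 11.98 CPM in dLG and 1.48, 2.47, 4.16 and 2.14 CPM in VPM. In the other direction Bdnf, a neurotrophin, had 10.1, 14.8, 14.2 and 12.8 CPM in dLG and 53.3, 50.4, 35.3 and 49.1 CPM in VPM (log2 fold change -1.86 ± 0.19, SE; adjusted p = 3.85e-05), and Dusp6 was 2.74-fold higher in VPM. Reads of Bdnf may include some from a gene on the opposite strand, which covers 14.4% of its exonic bases. Of 12 heat shock genes 0 were called by edgeR (1 toward dLG at an unadjusted p under 0.05, 0 by DESeq2 and 1 in each direction by limma-voom), and they summed to 3395 to 4314 CPM in dLG and 3087 to 4355 CPM in VPM. Hspa8 belongs to this list. Outside dLG 2, VPM 3 and the MGv library with low Hspa8, 2 were higher in dLG and 1 in VPM. Without dLG 2 alone 1 was higher in dLG, and without VPM 3 alone 1 was higher in VPM.

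Markers of other cells moved with the nuclei in places, and their part in the differences above was not tested. Oligodendrocyte lineage genes summed to 103 to 130 CPM in dLG and 145 to 152 CPM in VPM, with Sox10 at the floor of 3 counts and 1 of 5 called, Mbp, higher in VPM (log2 fold change -1.49 ± 0.33, SE). Astrocyte and radial glia genes summed to 86.5 to 179 CPM in dLG and 125 to 191 CPM in VPM, with Gfap at the floor and 1 of 11 called, Aldoc, at 2.10 to 11.8 CPM in dLG and 27.9 to 46.6 CPM in VPM. Without dLG 2 alone 2 of the list were called, and without dLG 3 alone 3, all higher in VPM. Endothelial and mural cell genes summed to 4.63 to 6.36 CPM in dLG and 7.69 to 11.9 CPM in VPM, with Cdh5, Col1a2 and Col3a1 at the floor and 2 of 5 called, Flt1 and Kdr, both higher in VPM. Flt1 lost its call without dLG 1, dLG 2 or dLG 3 (adjusted p = 0.126 to 0.137), and 1 of the list was called higher in VPM also without VPM 1, VPM 2 or VPM 4. Blood cell genes summed to 0.334 to 514 CPM in dLG, where dLG 3 alone was high, and to 3.77 to 18.2 CPM in VPM. Of 3 tested 1 was called, or 3 without dLG 3, all higher in VPM. The embryonic globin gene Hbb-bh1 was higher in VPM, with 2 counts in dLG against 332 in VPM (ratio 160.3, exact 95% interval 44.0 to 1329, counting error only). GABAergic neuron genes summed to 68.3 to 95.4 CPM in dLG and 23.5 to 48.2 CPM in VPM, and 2 of 4 were called, both higher in dLG. This count was 1 when any one library except dLG 4 or VPM 2 was left out. Cortical neuron genes summed to 1.91 to 3.04 CPM in dLG and 4.15 to 5.58 CPM in VPM, with 1 of 4 called (0 by edgeR without VPM 1, VPM 2 or VPM 4), and habenula and pretectum genes to 1.74 to 6.66 CPM and 1.26 to 2.73 CPM, with 0 of 2 called by edgeR, DESeq2 or limma-voom, or at an unadjusted p under 0.05. Of 9 pan-neuronal genes 1 was called, Snap25, or 2 without VPM 3 or without VPM 4.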

How the data were processed

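Read counts per gene were taken as deposited, in 8 libraries of dLG and VPM and 3 of MGv. Per the study's methods and the submitters' processing notes, the authors amplified cDNA with a SMARTer ultra low input kit, sequenced single-end reads of 50 bases, trimmed them (FastQC 0.11.7, Trim Galore 0.6.1, cutadapt 2.3), aligned them with STAR 2.7.0d to mm10, processed them with SAMtools 1.9 and counted them in Ensembl genes with featureCounts (Subread 1.6.4). The deposited counts were raw, neither normalized nor filtered, and replicates were not pooled. Strand use and the treatment of reads with several alignments are not given in the sources used here. The small input and PCR amplification without molecular identifiers mean that counts are not independent molecules, and intervals and floors cover counting error only.

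Groups and replicate numbers came from the sample titles. The study calls libraries of a nucleus biological replicates, each a pool of 4 brains, so p-values measure the spread between pools. Differences were tested with edgeR 4.0.16 in R 4.3.3 (the quasi-likelihood test) on all 11 libraries, with group means as the only terms, filterByExpr, TMM scaling (trimmed mean of M values) and Benjamini-Hochberg adjustment over 15907 of 33170 genes with a count. Genes were called at an adjusted p under 0.1, two-sided, the threshold the study used with DESeq2. Standard errors are the absolute log2 fold change over the square root of F. CPM values were TMM-scaled, and log2 CPM used a prior count of 2. Biological variation between libraries of a nucleus had a common coefficient of 28.2%. Library pairs within a nucleus differed by a chi-square of 12.8 to 115 per degree of freedom, so none were copies. Symbols and positions, 1-based, came from GENCODE M21 (GRCm38), which held 54723 of 54752 identifiers, and promoters from RefSeq (GRCm38.p6).

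The markers, gene lists and tests were chosen with earlier results of these data known. Genes named were the 6 markers, the 12 largest differences in each direction among protein-coding genes called, of at least 10 CPM and with no overlap, up to 2 called members per direction of each list by smallest adjusted p, and Gbx2. Other list members were named after their values were seen, and 4 genes that the rule or the lists hold are not reported here. Alternatives were DESeq2 1.42.0 (test and size factors), limma 3.58.1 (voom with sample quality weights), total counts, no filter, at least 10 counts in each library, dLG and VPM libraries alone, the replicate block, a log2 fold change over 1 in size, a threshold of 0.05, each library left out, and the libraries with low Hspa8 as a covariate or left out, or only libraries with Y-linked counts. A covariate for Y-linked counts was added after seeing the data.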

Additional observations from a re-analysis of the deposited data

Results flagged for a closer look

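Of 220 sets of 4 values (library measures, component scores, summed lists and named genes, in each nucleus), 13 held a value set apart from the other 3 by Dixon's test at the 95% level, where chance gives about 1 in 20. The 13 lie near that share. No explanation was tested for them.

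Low values in dLG 2 made up a group of 4. Its score on the second component was -21.2, against 2.73 to 6.40 in the other dLG libraries. Hs6st2 had 473 CPM there against 614 to 647 CPM, Gria1 had 68.7 CPM against 101 to 107 CPM, and Slc18a2 had 286 CPM against 719 to 760.4 CPM. In VPM 3, Slc18a2 had 206 CPM against 368 to 389 CPM in the other VPM libraries, and Nr2f2 had 21.6 CPM against 37.8 to 42.2 CPM.

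In dLG 3 blood cell genes summed to 514 CPM, against 0.334 to 0.430 CPM in the other dLG libraries. The same library had the lowest Cdh10, 56.4 CPM against 63.4 to 64.9 CPM, the lowest Ppp1r17, 0.436 CPM against 1.38 to 1.59 CPM, and the sole counts of Inhbb in dLG, 0.163 CPM against 0 CPM. With the other values all 0, any count of Inhbb would have been set apart. In dLG 4, Hes1 had 90.7 CPM against 44.5 to 47.7 CPM, and S100a10 had 38.9 CPM against 70.0 to 78.2 CPM. Astrocyte and radial glia genes summed to 191 CPM in VPM 4, against 125 to 131 CPM in the other VPM libraries.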

How the results depend on the processing

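The 1704 calls (791 higher in dLG, 913 in VPM) became 4414 (2153 and 2261) with limma-voom, 922 (423 and 499) with an absolute log2 fold change over 1, 2618 (1201 and 1417) without dLG 2, VPM 3 and the MGv library with low Hspa8, and 383 (196 and 187) with only the libraries that held Y-linked counts. Leaving out each library in turn gave 1093 to 2223 calls, 479 to 1056 higher in dLG and 600 to 1167 higher in VPM, the fewest without VPM 2 (1093; 493 and 600) or VPM 1 (1101; 479 and 622) and the most without VPM 3 (2223); without dLG 1 and without dLG 4 those higher in dLG were 511 and 504. The fit used fewer libraries where some were left out, but all libraries with limma-voom and with the limit on the fold change. What caused these changes was not tested. All other alternatives stayed within 1.5 times the count. No gene called in both the reported fit and an alternative changed direction in any alternative.

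Replicate numbers were not shown to pair the libraries: the correlation of deviations between dLG and VPM libraries of the same number was 0.18, 0.03, -0.01 and 0.48, dLG 2 correlated best with VPM 3 and dLG 3 with VPM 2. With the replicate block 1464 genes were called (662 and 802), 1377 of them also without it. Of 92 named genes called, all 92 were called without the libraries of low Hspa8, and 67 with only the libraries that held Y-linked counts. Over 201 genes and 22 alternatives, 3785 of 4355 values kept their side of the threshold, 569 lost the call and 1 gained it. The gain was that of Gbx2 without the libraries of low Hspa8. Differences under the floor of 3 counts were not detectable at this depth.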
